A study of Mus musculus with 6 samples.

Results

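*B3galt2*, *Shc3*, *Shisal2b*, *C030013G03Rik*, *Lacc1*, *Tmem211*, *Adgrg6*, *Ackr4*, *Adamts5* and *Tnfaip2* are 10 genes of varied function that gave lower signals in DAPT treated than in control cochlear epithelium. They were found by symbol in the annotation of the array, older names included (*Fam159b* for *Shisal2b*, *Gpr126* for *Adgrg6*, *Ccrl1* for *Ackr4*), and make up 10 of the 20262 genes measured. They were chosen by their lower log2 signal with DAPT on these same arrays, so that their DAPT-control differences are given as a description and without a test. Cochlear tissue of wild type mouse embryos at stage E15.5 held the cochlear duct, attached mesenchyme and the innervating neurons. It was cultured with the γ-secretase inhibitor DAPT at 3.33 µM or, as control, with 0.013% of the vehicle DMSO. Per the labels, experiment 1 was cultured for 23 hours, experiment 2 for 19 hours and experiment 3 for 24 hours, and each gave 1 DAPT array and 1 control array, hence 3 arrays per group. Explants of a group were pooled, the epithelium was freed with enzymes, and its RNA was hybridized to Affymetrix Mouse Exon 1.0 ST arrays, which report 1 signal per transcript cluster, a set of probes assigned to 1 transcribed unit. All signals below are the deposited log2 values, on which a difference of −1 is a halving, and a difference is always DAPT minus control of the same experiment.

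Notch receptors are activated by ligands on neighbouring cells, and γ-secretase then cuts the receptor and frees an intracellular domain that joins RBP-J on DNA to switch on genes such as the *Hes* and *Hey* repressors. In the developing cochlea, cells that receive this signal become supporting cells (SCs), while hair cells (HCs) present the ligands and express *Atoh1*. The enzyme has many other membrane substrates, so that DAPT is not specific to Notch.

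The start regions of 7 of the 10 members were held in the RefSeq promoter table of build GRCm38.p6 that was used here, each from 250 bases before to 50 bases after 1 annotated start. That start was the outer end of the annotated gene in 4 members, and lay inside the gene span by 687 bases for *Adgrg6*, 312 for *Lacc1* and 211 for *Tnfaip2*, where other transcripts reach further. The windows were searched on both strands for TGGGAA, the core of the site that RBP-J binds, for the E-box CACGTG, to which Hey repressors can bind, and for the E-box CAGCTG, of a type bound by factors such as Atoh1. The E-boxes read the same on both strands, and no 2 of these motifs lay in the same window. Of the windows, 4 held a motif and are printed below 5′ to 3′ on the strand of the gene, with the motif in capitals.
C030013G03Rik: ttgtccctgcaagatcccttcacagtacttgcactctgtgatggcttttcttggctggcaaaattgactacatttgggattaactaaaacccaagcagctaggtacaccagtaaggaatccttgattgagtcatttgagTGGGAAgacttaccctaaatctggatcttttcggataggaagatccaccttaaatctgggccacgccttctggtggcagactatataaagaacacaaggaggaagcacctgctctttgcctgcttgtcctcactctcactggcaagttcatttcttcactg
Tnfaip2: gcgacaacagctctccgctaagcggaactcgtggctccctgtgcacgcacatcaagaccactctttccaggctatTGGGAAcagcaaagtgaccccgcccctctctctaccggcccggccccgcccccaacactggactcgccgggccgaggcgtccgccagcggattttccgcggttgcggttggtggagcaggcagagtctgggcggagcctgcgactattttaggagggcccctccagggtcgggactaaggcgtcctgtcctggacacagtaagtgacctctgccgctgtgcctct
B3galt2: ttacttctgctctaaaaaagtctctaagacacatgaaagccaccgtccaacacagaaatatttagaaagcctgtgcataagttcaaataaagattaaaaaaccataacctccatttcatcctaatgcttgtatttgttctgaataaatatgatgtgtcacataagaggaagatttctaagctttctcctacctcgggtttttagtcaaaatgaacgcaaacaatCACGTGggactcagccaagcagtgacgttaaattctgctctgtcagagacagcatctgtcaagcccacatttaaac
Adgrg6: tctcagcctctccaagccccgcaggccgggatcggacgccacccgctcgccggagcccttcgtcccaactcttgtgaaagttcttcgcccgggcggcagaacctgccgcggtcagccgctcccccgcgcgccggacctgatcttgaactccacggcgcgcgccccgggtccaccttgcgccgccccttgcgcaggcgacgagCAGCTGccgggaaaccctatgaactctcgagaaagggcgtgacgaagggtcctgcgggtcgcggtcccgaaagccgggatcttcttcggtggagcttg
The windows lie at chr17:12466594-12466893 (plus strand) for *C030013G03Rik*, chr12:111442411-111442710 (plus strand) for *Tnfaip2*, chr1:143640447-143640746 (plus strand) for *B3galt2* and chr10:14544987-14545286 (minus strand) for *Adgrg6*. TGGGAA began 111 bases before the start of *C030013G03Rik* and 175 bases before the inner start of *Tnfaip2*, there within the gene span, and thus lay in 2 of the 7 members' windows, while 25.6% of all 32851 windows held it on either strand. CACGTG began 26 bases before the start of *B3galt2*, 1 of the 7, against 7.2% of all windows. CAGCTG began 48 bases before the inner start of *Adgrg6*, also within the gene span, 1 of the 7, against 16.3% of all windows. A match of 6 letters is a description of the window and not a bound site. The windows of *Lacc1*, *Shisal2b* and *Ackr4* held none of the 3 motifs, which says only that these letters are not there. Base composition varied widely, as G and C made up 79.3% of the window of *Lacc1*, 69.0% of *Adgrg6*, 64.3% of *Tnfaip2*, 55.3% of *Shisal2b*, 48.7% of *Ackr4*, 45.3% of *C030013G03Rik* and 37.7% of *B3galt2*, where the median over all windows was 52.7%.

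Genes known to respond to Notch were used to check the labels. *Hey1*, a Notch target, was at 9.52, 9.42 and 8.74 in DAPT and at 10.62, 10.45 and 10.50 in control epithelium in experiments 1, 2 and 3. *Atoh1* was at 11.37, 11.60 and 11.80 in DAPT and at 10.32, 10.30 and 10.60 in control epithelium. *Jag1* differed by −1.24 ± 0.09 and *Hes5* by −0.56 ± 0.09 (standard error of the limma fit, n = 3 pairs). Over all 20262 genes, limma with the experiment as a block placed 526 genes lower (2.60%) and 1067 higher (5.27%) with DAPT at an unadjusted p under 0.05, and 0 genes in either direction at a Benjamini-Hochberg adjusted p under 0.05. Without the block 199 genes were lower (0.982%) and 394 higher. With the block, the split was 392 lower and 1423 higher after the values were quantile normalized again, with 3 genes at the adjusted threshold. With the block, limma draws the spread of a gene's 3 within-experiment differences toward that over all genes, and the p-values rest on this moderated spread. So few arrays bound the precision of every value.

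In every experiment, all 10 members gave a lower signal on the DAPT array. Over all genes 10.5% were so, and the members had been chosen for it. In 8 of the 10, every DAPT array was below every control array, as in 2.35% of all genes, and the exceptions were *C030013G03Rik* and *Tnfaip2*. The mean differences ran between −0.94 for *B3galt2* and −0.31 for *Adamts5* with a median of −0.58, where the median over all genes was 0.02. The array measures a mixture of cells, and fewer cells of a type and less RNA per cell cannot be told apart in any of these values.

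**Figure D1:**
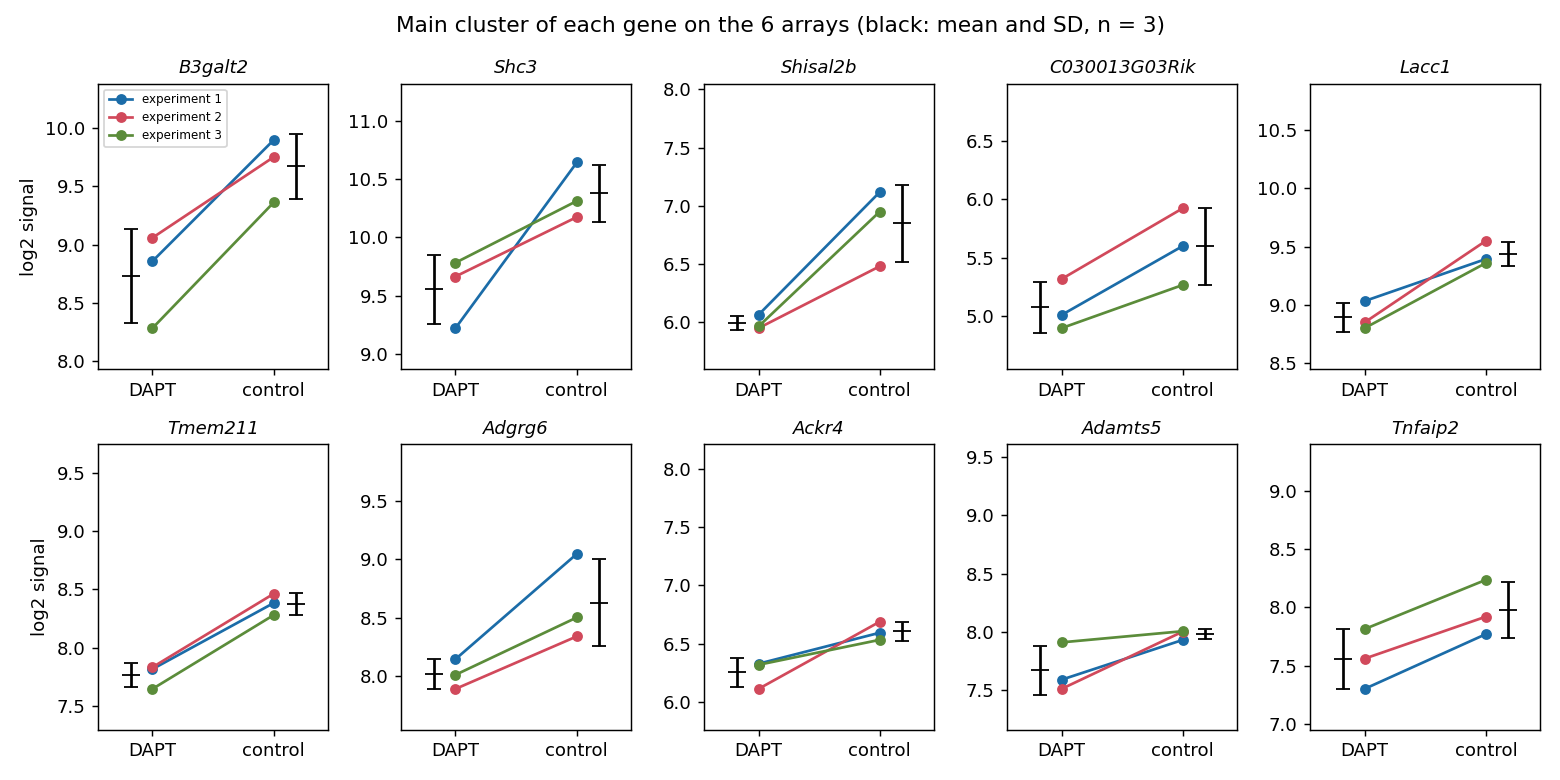
Log2 signal of the main transcript cluster of each of the 10 members (vertical axis, 1 panel per gene), with the 3 DAPT arrays on the left and the 3 control arrays on the right and a line joining the arrays of 1 experiment. Every line is lower at its DAPT end, and only *C030013G03Rik* and *Tnfaip2* have DAPT points within the range of the controls.

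*Adgrg6* and *Ackr4* are receptors at the cell surface. *Adgrg6* (chromosome 10, 14402583 to 14545723, GRCm38.p6) encodes an adhesion G protein-coupled receptor that Schwann cells need to myelinate and that shapes the semicircular canals of zebrafish. Its signal was 8.14, 7.89 and 8.01 in DAPT and 9.05, 8.34 and 8.50 in control epithelium of experiments 1, 2 and 3. The groups did not overlap, and the control of experiment 1 stood highest. The differences were −0.90, −0.45 and −0.49 with a mean of −0.62 ± 0.14 (standard error of the 3 differences, as for all members below), so that DAPT epithelium held 65.2% of the control signal. The mean difference was −0.41 without the control array of experiment 1.

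*Ackr4* (chromosome 9, 104097682 to 104126643) encodes an atypical chemokine receptor that takes up and removes Ccl19, Ccl21 and Ccl25 without G protein signaling. Its signal was 6.33, 6.11 and 6.32 in DAPT and 6.59, 6.69 and 6.53 in control epithelium. The groups were narrow and did not overlap, and some of these signals lay below the median of their own array. The differences were −0.27, −0.58 and −0.21, with a mean of −0.35 ± 0.11, or 78.3% of control. The gene lies within the span of *Acad11* on the opposite strand, which was not analysed here.

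*Shc3* (chromosome 13, 51423389 to 51569451) encodes the Shc adaptor found mainly in neurons, where it couples activated Trk receptors to Ras and PI3K signaling. Its signal was 9.22, 9.66 and 9.78 in DAPT and 10.64, 10.18 and 10.31 in control epithelium. The groups did not overlap, and experiment 1 had both the lowest DAPT array and the highest control array. The differences of −1.42, −0.51 and −0.53 were unequal, their mean of −0.82 ± 0.30 had the widest error among the members, and it was −0.52 without experiment 1. DAPT epithelium held 56.6% of the control signal.

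*Shisal2b* and *Tmem211* encode small membrane proteins. *Shisal2b* (chromosome 13, 104845283 to 104863893) gives a protein related to the Shisa family. Its signal was 6.06, 5.95 and 5.96 in DAPT, tightly grouped, and 7.12, 6.48 and 6.95 in control epithelium. The DAPT arrays thus lay close together below the median signal of the arrays, which ranged between 6.297 and 6.364, whereas all 3 controls were above it and spread more widely. The differences were −1.06, −0.53 and −0.99, with a mean of −0.86 ± 0.16, or 55.2% of control.

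*Tmem211* (chromosome 5, 113226909 to 113240223) encodes a tetraspan protein of the LHFPL family. Its signal was 7.82, 7.83 and 7.65 in DAPT and 8.38, 8.46 and 8.28 in control epithelium. The groups were separated by 0.45, the widest gap among the members, and the differences of −0.57, −0.63 and −0.63 were the most even, with a mean of −0.61 ± 0.02 or 65.4% of control. A second cluster of *Tmem211* was less regular, at 6.81, 6.40 and 7.39 in DAPT and 8.14, 7.21 and 7.40 in control epithelium. It was lower with DAPT by −1.32 and −0.81 in experiments 1 and 2 but by only −0.01 in experiment 3.

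*B3galt2* and *Lacc1* are enzymes of the cell interior. *B3galt2* (chromosome 1, 143640697 to 143649937) encodes a Golgi β1,3-galactosyltransferase that adds galactose to N-acetylglucosamine on glycans. Its signal was 8.86, 9.06 and 8.28 in DAPT and 9.90, 9.75 and 9.36 in control epithelium. The groups did not overlap, and experiment 3 gave the lowest array in both. The differences were −1.04, −0.69 and −1.08, with a mean of −0.94 ± 0.12, and the DAPT signal was 52.2% of control, the lowest share of the 10 genes. The second *B3galt2* cluster read 7.17, 7.32 and 7.75 in DAPT and 7.42, 7.43 and 7.61 in control epithelium, so that it was slightly lower in experiments 1 and 2 and higher in experiment 3. The mean of both clusters differed by −0.50. By RT-qPCR, the paper reports a ratio of DAPT to control epithelium for *B3galt2* that lies close to the main cluster. It also reports *B3galt2* as reduced in SCs sorted from DAPT treated explants. On the arrays, no further probe set was at hand to decide between the clusters. *B3galt2* lies on the plus strand inside the span of *Cdc73*, a minus-strand gene whose own signal differed by −0.17.

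*Lacc1* (chromosome 14, 77021739 to 77036929) encodes FAMIN, a purine nucleoside enzyme known from macrophages. Its signal was 9.03, 8.85 and 8.80 in DAPT and 9.39, 9.55 and 9.36 in control epithelium, 2 narrow groups set apart by 0.33. The differences were −0.36, −0.70 and −0.56, with a mean of −0.54 ± 0.10 or 68.7% of control. Its second, dimmer cluster was lower in every experiment as well, by −0.43, −0.55 and −0.30, although its groups overlapped. *Ccdc122* is transcribed away from *Lacc1* with its start 155 bases from the *Lacc1* start used here, while their full annotated spans overlap, and *Ccdc122* differed by 0.09. The window around this start, on the strand of *Lacc1* at chr14:77036568-77036867 (minus strand), is printed here for its high content of G and C, with no part in capitals.
Lacc1: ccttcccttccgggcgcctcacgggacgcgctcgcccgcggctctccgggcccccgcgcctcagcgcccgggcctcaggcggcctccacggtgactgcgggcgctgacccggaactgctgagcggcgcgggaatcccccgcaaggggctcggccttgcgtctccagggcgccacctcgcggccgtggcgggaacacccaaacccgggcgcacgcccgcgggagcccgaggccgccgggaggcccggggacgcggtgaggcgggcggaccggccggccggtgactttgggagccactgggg

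*Adamts5* (chromosome 16, 85858157 to 85901125) encodes a secreted metalloprotease that cuts aggrecan and versican in the matrix. Its main cluster was at 7.588, 7.509 and 7.909 in DAPT and at 7.930, 8.002 and 8.005 in control epithelium. The controls were nearly equal, and the highest DAPT array, that of experiment 3, came within 0.02 of the lowest of them. The differences were −0.34, −0.49 and −0.10, with a mean of −0.31 ± 0.12 or 80.7% of control, the smallest of the 10. The 3 further clusters of *Adamts5* averaged −0.24 ± 0.23, −0.22 ± 0.22 and −0.50 ± 0.31, and each owed most of its mean to a single experiment. The last of these lay below the array median on all arrays and was the only one of the 3 to be lower in every experiment.

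*Tnfaip2* (chromosome 12, 111442450 to 111455018) encodes M-Sec, a Sec6-domain protein induced by TNF that helps cells to extend thin membrane tubes. Its signal was 7.30, 7.56 and 7.81 in DAPT and 7.77, 7.92 and 8.24 in control epithelium. The groups overlapped, with experiment 1 lowest and experiment 3 highest in both. Within experiments the differences were even, at −0.47, −0.36 and −0.42, with a mean of −0.42 ± 0.03 or 74.8% of control.

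*C030013G03Rik* (chromosome 17, 12466844 to 12479578) is a long noncoding RNA on the plus strand inside the span of the minus-strand gene *Slc22a3*, which was not analysed here. Its signal was 5.01, 5.32 and 4.89 in DAPT and 5.60, 5.92 and 5.26 in control epithelium. Experiment 2 was highest and experiment 3 lowest in both groups, so that they overlapped slightly. The differences were −0.59, −0.61 and −0.37 with a mean of −0.52 ± 0.08 or 69.5% of control, and all 6 signals lay below the array median.

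**Figure D2:**
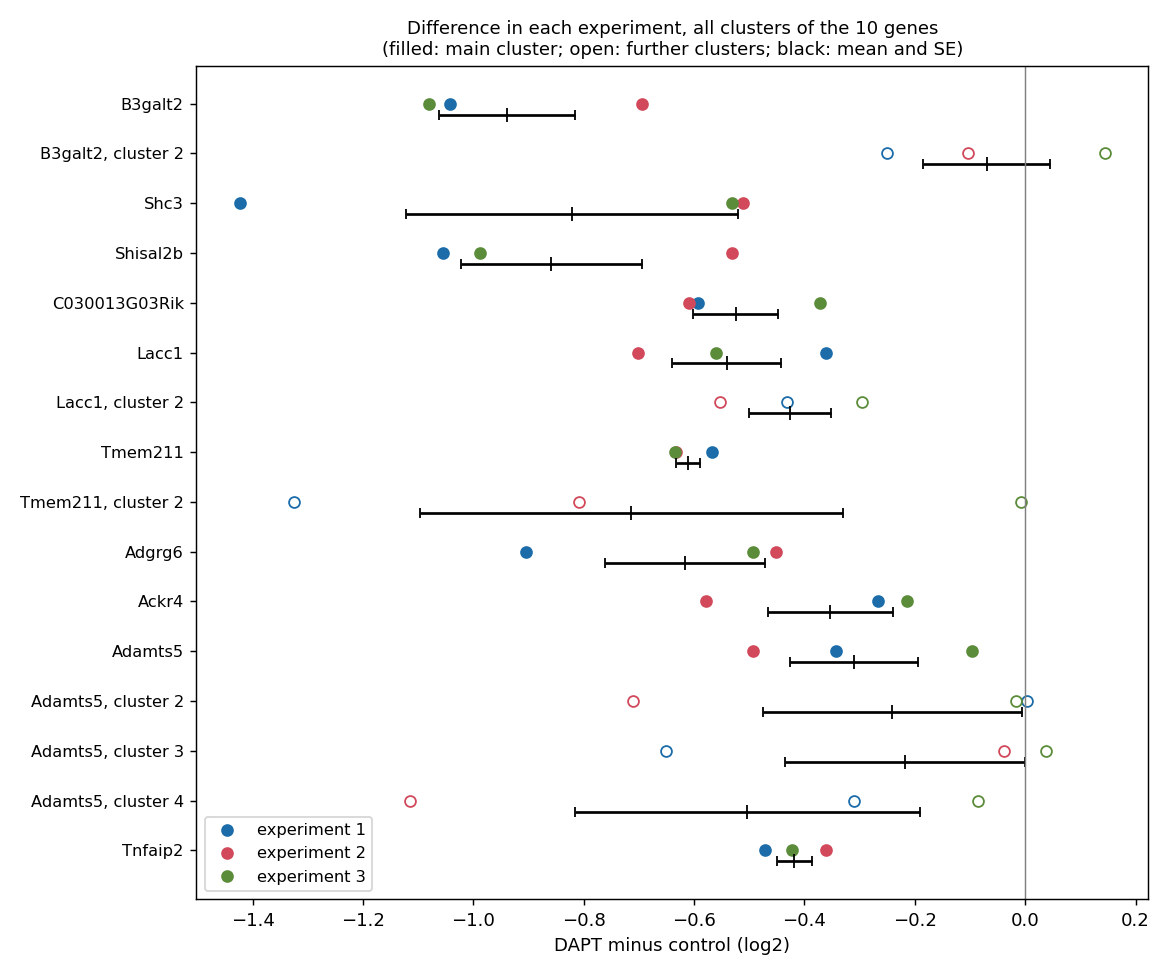
Difference DAPT minus control on the log2 scale (horizontal axis) for the 16 transcript clusters of the 10 members (rows), with 1 point per experiment and a bar for the mean and its standard error over the 3 experiments. Of the 16 clusters 13 lie below 0 in all 3 experiments, the second *Tmem211* cluster barely so in experiment 3, and the exceptions are second or later clusters of *B3galt2* and *Adamts5*.

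Of the members 4 had several clusters, 6 beyond the main ones, and 3 of these 6 were lower in all 3 experiments, or 13 of all 16 clusters, where any value below 0 was counted, the −0.01 of the second *Tmem211* cluster included. The fall was largest in experiment 1 for 4 members, in experiment 2 for 4 and in experiment 3 for 2. The median difference over the members was −0.58, −0.55 and −0.51 in the 3 experiments, that is, by the labels, after 23, 19 and 24 hours. The spread of the 3 differences had a median SD of 0.20 over members against 0.14 over all genes.

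Genes of the same families and pathways were then examined, in 12 lists that leave out the members and cover all of them but the noncoding *C030013G03Rik*. Of 190 listed genes 177 were measured. At an unadjusted p under 0.05 in the limma fit 6 of them were lower (3.39%, against 2.60% of all genes) and 12 higher (6.78%, against 5.27% of all genes), 0 passed the adjusted threshold, and their median difference was 0.02, as over all genes. Differences of these genes are given with the standard error of the fit over 3 pairs.

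**Figure D3:**
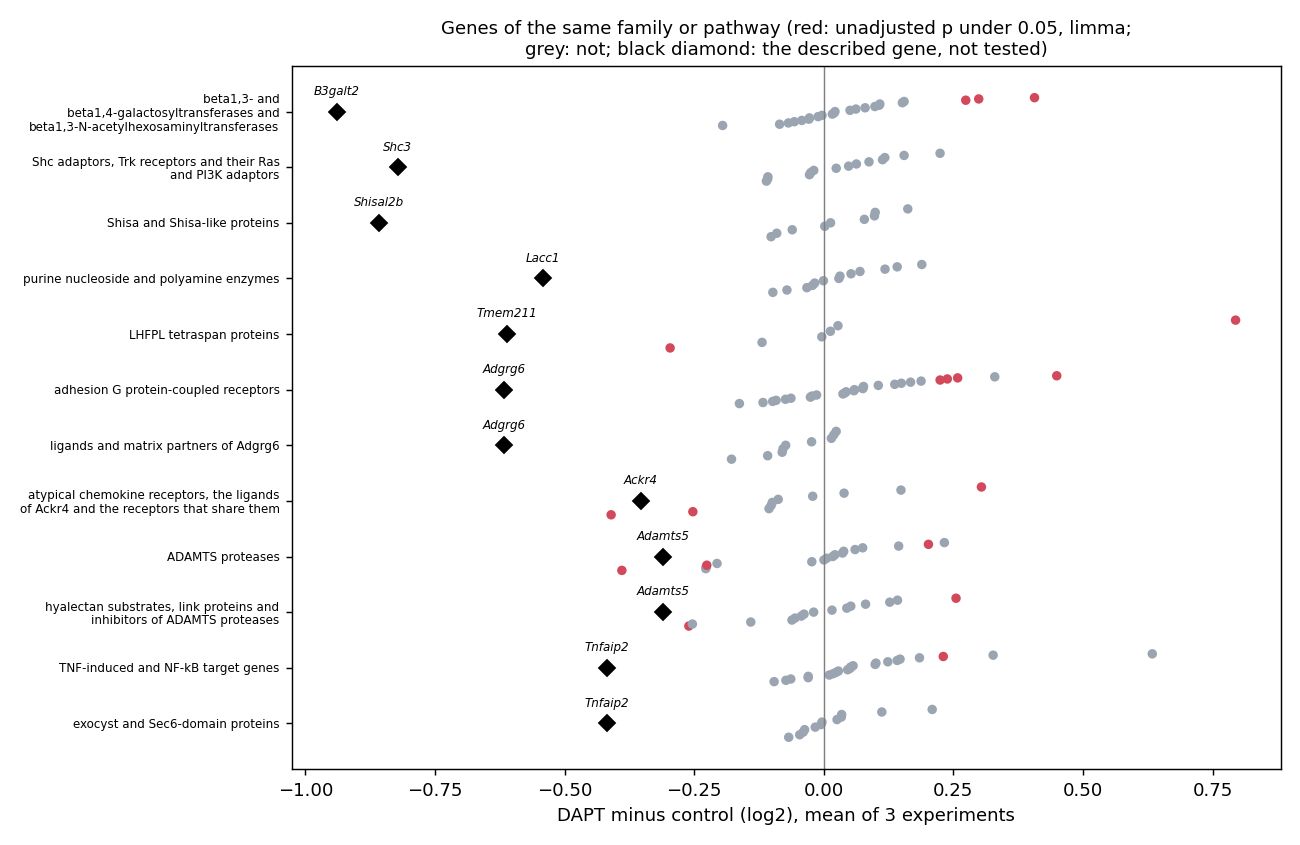
Difference DAPT minus control on the log2 scale (horizontal axis) for the measured genes of the 12 family and pathway lists (rows, 1 point per gene, red at an unadjusted p under 0.05 in limma and grey otherwise), with the member that each list belongs to as a black diamond. The 177 listed genes scatter around a median of 0.02, 6 red points lie below 0 and 12 above, and the diamonds lie between −0.94 and −0.31.

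Among the galactosyltransferases and related enzymes 0 of 23 measured genes were lower and 3 higher. These were *B3galt5*, which differed by 0.41 ± 0.10 and encodes a β1,3-galactosyltransferase of the same family as *B3galt2*, *B3galt4* by 0.30 and *B3gnt3*, a β1,3-N-acetylglucosaminyltransferase, by 0.27. *B3galt5* was at 7.451, 7.041 and 7.005 in DAPT and at 6.830, 6.733 and 6.714 in control epithelium, with no overlap. Of the partners of *Shc3*, 0 of 14 passed in either direction, the largest difference was that of *Gab2* at 0.22 ± 0.14, and the paralogs differed by 0.11 for *Shc1*, 0.16 for *Shc2* and −0.11 for *Shc4*. The neurotrophin receptor genes *Ntrk2* and *Ntrk3* differed by 0.06 and 0.09. Of the Shisa and Shisa-like genes 0 of 9 passed, the one with the largest difference being *Shisa3* at 0.16 ± 0.11.

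The LHFPL family held both directions. *Lhfpl5*, a subunit of the HC mechanotransduction complex, was at 8.83, 8.21 and 8.69 in DAPT and at 7.93, 7.52 and 7.89 in control epithelium. It differed by 0.79 ± 0.08, upward in all 3 experiments and opposite in sign to *Tmem211*, and its adjusted p in limma was 0.095. *Lhfpl1* differed by −0.30 ± 0.09 in the same direction as *Tmem211*, and the other 4 of the 6 measured genes passed in neither direction. Among adhesion G protein-coupled receptors 0 of 27 were lower and 4 higher, with *Adgrl4*, an endothelial receptor, at 0.45 ± 0.10, *Celsr3* at 0.26 and *Adgrb2* at 0.24 among them. The ligands and matrix partners of *Adgrg6* gave 0 of 9 in either direction, and *Col4a1*, a chain of the collagen IV that binds it, had the largest difference at −0.18 ± 0.08.

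Around *Ackr4*, 10 chemokine genes and receptors were measured, of which 2 were lower and 1 higher. Of the ligands named above for *Ackr4*, only *Ccl25* was among them, and it passed in neither direction at −0.10 ± 0.08. The 2 lower genes were *Cxcl12*, which is not one of those ligands, and *Cxcr4*. *Cxcl12* was at 8.17, 8.46 and 8.90 in DAPT and at 8.43, 8.89 and 9.44 in control epithelium, overlapping groups with a difference of −0.41 ± 0.09 within experiments. Its receptor *Cxcr4* differed by −0.25 ± 0.09 and *Ccr7*, the signaling receptor for Ccl19 and Ccl21, by 0.30 ± 0.08. Of the ADAMTS proteases 2 of 17 were lower and 1 higher. *Adamts6* differed by −0.39 ± 0.09, *Adamts19* by −0.23 ± 0.08 and *Adamts16* by 0.20 ± 0.08. Of the substrates and inhibitors of these proteases 1 of 15 was lower, *Vcan* for versican at −0.26 ± 0.10, and 1 higher, *Ncan* for neurocan at 0.26 ± 0.07.

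The purine nucleoside and polyamine enzymes around *Lacc1* gave 0 of 13 in either direction, with the adenosine deaminase gene *Ada* at 0.19 ± 0.11. The TNF and NF-κB targets around *Tnfaip2* gave 0 of 22 lower and 1 higher, *Tnf* itself at 0.23 ± 0.09, and the Sec6-domain and exocyst genes gave 0 of 12, with *Exoc3l2*, a relative of *Tnfaip2*, at 0.21 ± 0.09. In this fit the general TNF-induced genes *Tnfaip3* and *Nfkbia* differed by 0.10 and 0.02.

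Position on the chromosome had played no part in the choice of the members. Of the 40 measured genes that lie nearest to them, 2 on each side, 1 was lower and 0 higher at an unadjusted p under 0.05, with a median difference of −0.02. The one was *Gm266*, 29.6 kb from *Tnfaip2*. It differed by −0.54, −0.20 and −0.40 in the 3 experiments with a mean of −0.38 ± 0.09 and an adjusted p of 0.364 in limma. The nearest measured genes were not always close. *Gm4845* lay 2384 kb from *B3galt2*, and *N6amt1* and *Ltn1* lay 1453 and 1476 kb from *Adamts5*. Genes without a one-gene cluster in the annotation used here could not be counted. Among them were *Slc22a3* and *Acad11*, whose spans hold *C030013G03Rik* and *Ackr4*. The paper lists *Slc22a3* among its top genes lowered by DAPT, so that the count of neighbours leaves out at least this fall.

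**Figure D4:**
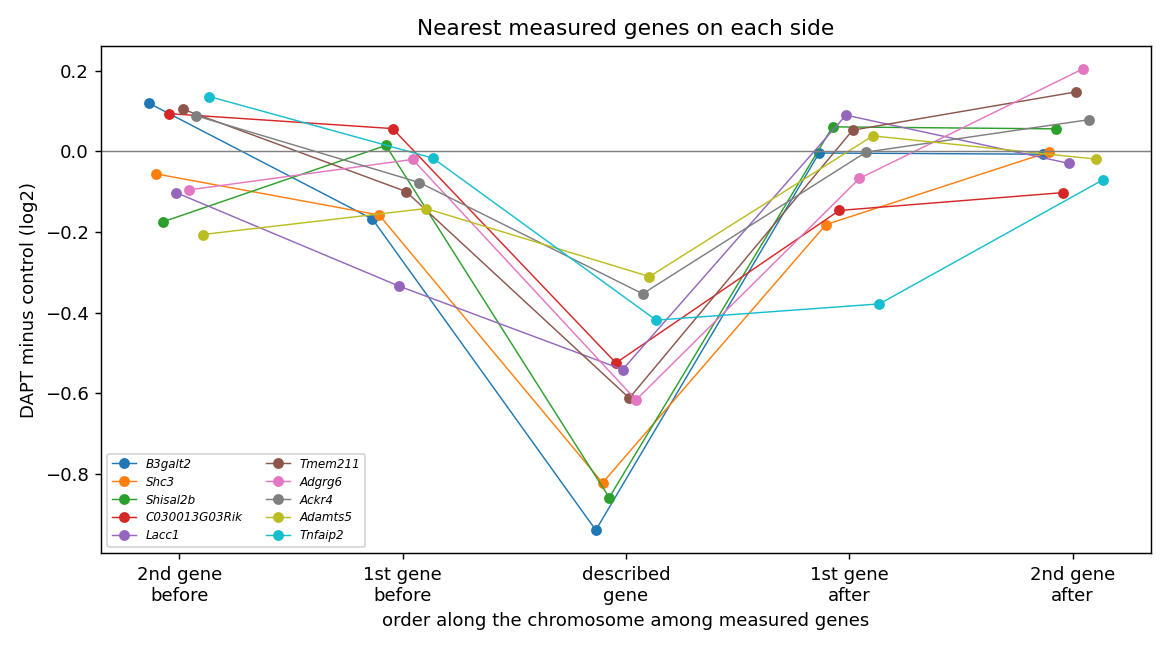
Difference DAPT minus control on the log2 scale (vertical axis) of each member (centre) and of the 2 measured genes nearest on either side (horizontal axis, order along the chromosome), with 1 line per member. The members lie between −0.94 and −0.31 and the 40 neighbours around a median of −0.02, with *Gm266* beside *Tnfaip2* at −0.38. The neighbours lie up to 2384 kb from their member.

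Genes with a similar pattern were sought by Pearson's r over the 6 arrays among genes above the median signal, 10130 or 10131 for each member, as a description that rests on 6 points and in which treatment and experiment are mixed. *Shc3* was most like *Apc* at 0.98, *Sox2* at 0.97 and *Daam2* at 0.97, *Sox2* being a pro-sensory and SC gene. *Shisal2b* was most like *Colgalt2* at 0.98, *Asrgl1* at 0.97 and *Heyl*, a Notch target, at 0.97. *Adgrg6* was most like *Dct* at 0.99, a melanocyte gene, *Mpp2* at 0.99 and *Sdk1* at 0.99. *Ackr4* was most like *Inhba* at 0.97, which encodes an activin subunit, *EG667023* at 0.97 and *H3f3b* at 0.96. *Tmem211* and *Lacc1* had each other (0.98) and *Rab1a* (0.99 and 0.98) among their 3 closest genes, beside *Ppfibp1* at 0.97 for *Tmem211* and *Pcf11* at 0.98 for *Lacc1*.

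For *B3galt2* the most similar genes hardly differed with DAPT. They were *Agfg1*, *Chmp2b* and *Tmx4*, with r of 0.99 each and differences of −0.09, −0.07 and −0.06. *Tnfaip2* went with *Dcp2* at 0.96, *Rpl19-ps7* at 0.96 and *Zfp277* at 0.96, *Adamts5* with *Maob* at 0.99, *Olfr71* at 0.98 and *Gm6685* at 0.98, and *C030013G03Rik* with *Dtl* at 0.99, *Kdm6a* at 0.98 and *Rasa1* at 0.97. As all members were chosen for lower signals on the same DAPT arrays, a positive r between them was favoured by that choice. Between members r ran between 0.32 for *C030013G03Rik* with *Tnfaip2* and 0.98 for *Lacc1* with *Tmem211*. Over the 3 controls alone, which is too few points to rank pairs, it ran between −0.999 and 0.998. These rankings depend on the experiments as well as on DAPT. With the mean of each experiment subtracted, between 143 genes for *Adamts5* and 307 for *Shisal2b* had an r above 0.95. The closest genes were then mostly others, *St3gal1*, *Selenos* and *Robo1* for *Shc3*, and *Asrgl1*, *Colgalt2* and *Cdk8* for *Shisal2b*, so that *Sox2* and *Heyl* were no longer among the 3 nearest.

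Markers of cell types moved beside the members. Of 14 SC and pro-sensory markers 8 were lower and 0 higher at an unadjusted p under 0.05, with a median difference of −0.55, and their summed linear signal lay between 18955 and 25493 in DAPT and between 26300 and 30369 in control epithelium, without overlap. All 9 measured HC markers were higher, with sums between 8202 and 9922 in DAPT and between 4239 and 5329 in control epithelium. The 8 were *Sox2*, *Jag1*, *Hey1*, *Hey2*, *Heyl*, *Hes5*, *Lfng* and *Prox1*, mostly targets or parts of the Notch pathway, with differences between −1.29 for *Hey1* and −0.54 for *Lfng*. The other 6 did not pass, with *S100a1* at 0.02, *Slc1a3* at 0.02, *Sox9* at 0.03, *Sox10* at −0.03, *Fgfr3* at −0.07 and *Cdkn1b* at −0.25. The part of a change in cell numbers in the members' differences was not tested.

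Of 10 pericyte and smooth muscle markers 5 were lower and 1 higher. Their sums lay between 2763 and 3260 (DAPT) and between 3182 and 4490 (control), and *Abcc9* showed the largest difference at −0.90 ± 0.15. For macrophages, in which *Lacc1* and *Tnfaip2* are known, 0 of 12 markers were lower and 1 higher, with sums between 2466 and 4125 in DAPT and between 2129 and 3325 in control epithelium. For glia, in which *Adgrg6* is known, 0 of 8 passed in either direction, with sums between 7627 and 10534 in DAPT and between 8191 and 9876 in control epithelium. *Sox10*, also counted among the SC and pro-sensory markers, had the highest signal of the 8 on every array, so that these sums are not of glia alone. For neurons, in which *Shc3* is known, 1 of 12 was lower and 0 higher. The 1 lower was *Isl1* at −0.40 ± 0.12, while the median difference of the 12 was 0.09. Among the controls, every other marker of the 12 was lowest in experiment 1. *Isl1* was at 10.02, 10.02 and 9.70 in the controls of experiments 1, 2 and 3, and so did not vary with the rest of its list. The sums of the 12 lay between 4151 and 8427 in DAPT and between 3666 and 8543 in control epithelium. For endothelium 1 of 12 was lower and 2 higher, with sums between 2575 and 4222 in DAPT and between 1952 and 4277 in control epithelium, and for mesenchyme 1 of 11 was lower, with sums between 6898 and 11510 in DAPT and between 6418 and 11836 in control epithelium. The part of these cells in the members' differences was not tested. In the cochlea, the paper locates *Shc3* by in situ hybridization in precursors of HCs and SCs and in differentiating SCs. By RT-qPCR, it reports *Shc3*, *Adgrg6* and *B3galt2* as higher in sorted SCs than in unsorted cochlear epithelium. It also reports them as reduced in SCs sorted from DAPT treated explants. Of the 11 measured markers of cochlear epithelium itself, all above the array median on every array, 2 were lower and 0 higher, *Krt8* at −0.28 ± 0.09 and *Fgf10* at −0.26 ± 0.09, with a median of −0.14. Their sums lay between 13669 and 19663 in DAPT and between 16145 and 20140 in control epithelium, and their part in the members' differences was not tested either.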

How the data were processed

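RNA of 3 DAPT and 3 control pools was measured on 6 arrays. The values deposited by the authors are log2 signals per transcript cluster, made in Partek with its extended meta-probe set by RMA with quantile normalization. The submitters' notes name mm9, and no coordinate was taken from the arrays. Coordinates, current symbols and promoters came from a RefSeq GRCm38.p6 annotation. Of 115830 clusters 25539 carried 1 gene name in the annotation used here and gave 20262 genes, and the cluster with the highest mean stood for a gene with several.

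DAPT and control were compared over all genes with limma 3.58.1 (lmFit, eBayes) in R 4.3.3, blocked by experiment, and p-values were adjusted by Benjamini-Hochberg. The study design pairs the samples, and deviations from the group means correlated at 0.556, 0.434 and 0.513 within experiments and at most at 0.009 between them. The script was tested on simulated data. The members and all lists were chosen with earlier results of these data known. Named were all members with every cluster, in each list up to 3 genes at an unadjusted p under 0.05 or else the one with the largest difference, neighbours under that p, the 3 most similar genes per member, and label and cell type markers. Paralogs and further pathway genes outside this rule were named after their values were seen. Alternatives left out the block, single arrays or experiments, changed the variance model, scaling, signal filter or choice of cluster, or weighted the arrays.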

Additional observations from a re-analysis of the deposited data

How the results depend on the processing

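All 10 members kept their direction under every alternative that gave a member value, and 128 of 140 member values moved by less than the SD between replicates, with 12 beyond it and 0 reversed. Those that moved by more than 1.5 times the given values were *B3galt2*, at −0.50 as the mean of both clusters, *Shc3*, at −0.52 without experiment 1, and *Adgrg6*, at −0.41 without control 1. Every member was lower in all 3 experiments, for which the members had been chosen, so that leaving out an experiment could not reverse any of them. For members whose groups did not overlap, leaving out a single array could not do so either. The fit without the block gives the same mean differences by arithmetic. The kept direction is thus largely fixed by the choice of the members. The counts of genes varied between the alternatives. Against 526 genes lower and 1067 higher, and 6 and 12 family genes, the fit without the block gave 199 and 394, and 1 and 4, and the plain one-way comparison 215 and 490, and 1 and 5. Without the block the count of neighbouring genes was 1 as before. The plain paired comparison gave 2 and 7 family genes. Genes above the median signal gave 333 and 471, with 6 family genes higher, and array weights 914 and 1628, with 21 family genes higher. The genes at the adjusted threshold, 0 before, numbered 6 with a trend and robust prior, 3 after quantile normalization again, 26 above the median signal, 6 with the mean of all clusters and 32 with array weights. Leaving out an experiment in turn gave between 364 and 947 genes lower, between 708 and 1359 higher, between 4 and 8 family genes lower and between 8 and 12 higher. Leaving out a single array, which ends the pairing, gave between 137 and 411 lower, between 265 and 537 higher, between 0 and 4 family genes lower and between 3 and 7 higher, against 199, 394, 1 and 4 with all arrays. The 947 came without experiment 1, the 411 without control 1. The signals of *C030013G03Rik* and of 1 *Adamts5* cluster lay below the array median on all arrays, which limits how well their differences are measured.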
